A study of Mus musculus with 36 samples.

Results

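The transcripts of 10 genes of the circadian clock were followed in mouse tibia. They are *Arntl*, *Clock* and *Npas2*, which encode the activators, *Per1*, *Per2*, *Per3*, *Ciart*, *Nr1d1* and *Nr1d2*, which encode repressors, and *Dbp*, an output gene. They were chosen by name from the 56246 genes of the deposited table, and each symbol stood in 1 row. Of the 10, 9 had a mean of at least 0.5 TPM, a measure of transcript abundance per length and library, over all libraries and entered the test with 16123 genes in all. *Npas2*, with fewer reads, did not pass that filter and is described by its levels.

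Each group held 12 C57BL/6J mice, 6 males and 6 females, killed at 6 months of age. Wild-type mice had received no treatment (NT). The other groups were *LMNA* G/G mice (genotype label LMNAG608G/G608G), which carry a human *LMNA* transgene with the progeria mutation in double copy, and received saline or an adenine base editor (ABE) into the retro-orbital sinus 14 days after birth. The ABE was delivered by a pair of AAV9 vectors, and not every cell of a tissue is edited by such a vector. The tibiae had been freed of epiphyses and marrow, so that mostly cortical bone remained. The hour at which each mouse was killed is not given in the sources used here.

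In the cell's clock, ARNTL (also called BMAL1) pairs with CLOCK or with its paralogue NPAS2 and binds E-boxes, which switches on the *Per*, *Cry*, *Nr1d*, *Ciart* and *Dbp* genes. PER and CRY proteins then inhibit the activator pair, CIART (CHRONO) does so as well, and NR1D1 and NR1D2 (REV-ERB alpha and beta) repress *Arntl*, *Npas2* and, more weakly, *Clock* through RORE elements. DBP binds D-boxes and carries the rhythm to other genes. In most peripheral tissues of mice kept in light and dark, *Dbp* and *Nr1d1* peak in the day, *Per* genes around dusk, and *Arntl* and *Npas2* about opposite to *Nr1d1*. Osteoblasts, osteocytes and skeletal muscle fibres all hold such a clock, and *Per1* also responds to glucocorticoids and to cyclic AMP.

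Start regions of these genes were searched for the elements named above. RefSeq windows on GRCm38.p6, each from 250 bases before to 50 bases after an annotated start, were found for 9 of the 10 genes (13 windows in all). *Per2* had no entry. Both strands were searched for the E-box CACGTG, the D-box TTATGNAA and the core of the RORE, TAGGTCA, and no matches overlapped in the 13 windows. The E-box stood in 7.15% of all 32851 windows, the D-box in 3.38% and the RORE core in 2.61%. Among the clock genes the E-box was found in the windows of *Ciart* and *Per1*, the D-box in those of *Per1* and *Per3*, and the RORE core in 1 of the windows of *Arntl*. These 4 windows are shown because they hold every match, with the matched letters in capitals and the sequence read 5′ to 3′ on the strand of the gene. The *Ciart* window (chr3:95882179-95882478, minus strand) holds 3 E-boxes. The *Per1* window (chr11:69098699-69098998, plus strand) holds an E-box followed by a D-box, the *Per3* window (chr4:151044616-151044915, minus strand) a pair of D-boxes, and the *Arntl* window (chr7:113207261-113207560, plus strand) a RORE core after the start.
Ciart: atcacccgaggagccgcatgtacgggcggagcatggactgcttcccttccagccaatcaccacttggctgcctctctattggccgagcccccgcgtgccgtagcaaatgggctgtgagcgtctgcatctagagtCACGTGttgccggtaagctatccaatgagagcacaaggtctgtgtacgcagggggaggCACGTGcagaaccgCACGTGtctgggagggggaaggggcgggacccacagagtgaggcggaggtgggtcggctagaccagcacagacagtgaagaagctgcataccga
Per1: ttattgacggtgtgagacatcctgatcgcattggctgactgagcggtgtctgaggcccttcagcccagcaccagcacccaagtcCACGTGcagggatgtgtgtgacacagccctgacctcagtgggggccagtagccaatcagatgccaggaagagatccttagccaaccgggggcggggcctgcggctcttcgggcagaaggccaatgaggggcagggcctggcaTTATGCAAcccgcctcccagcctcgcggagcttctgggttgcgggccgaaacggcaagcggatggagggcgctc
Per3: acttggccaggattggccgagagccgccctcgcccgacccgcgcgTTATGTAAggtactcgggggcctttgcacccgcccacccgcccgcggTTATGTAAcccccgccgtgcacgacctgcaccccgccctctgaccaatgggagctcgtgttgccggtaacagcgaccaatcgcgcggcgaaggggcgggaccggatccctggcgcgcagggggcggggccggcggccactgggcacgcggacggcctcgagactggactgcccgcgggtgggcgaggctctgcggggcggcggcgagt
Arntl: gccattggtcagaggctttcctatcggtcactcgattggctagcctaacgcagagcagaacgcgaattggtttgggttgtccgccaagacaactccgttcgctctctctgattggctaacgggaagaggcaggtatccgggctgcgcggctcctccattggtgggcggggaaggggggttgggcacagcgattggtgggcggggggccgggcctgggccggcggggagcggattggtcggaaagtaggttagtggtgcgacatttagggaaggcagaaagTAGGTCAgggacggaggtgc
The windows of *Clock*, *Npas2*, *Nr1d1*, *Nr1d2* and *Dbp* held none of these letters, which says nothing about elements that lie elsewhere. A match in a window describes its letters and is not a measured binding site.

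Libraries had 48064068 to 116206662 reads on genes, with medians between 73971316 and 79533099.5 in the 3 groups. Values are given as scaled TPM, the deposited TPM divided by the median ratio of a library to the geometric mean of 14219 genes. This divisor ran from 0.216 to 1.57 and was lowest in ABE-treated replicate 1, a female, while the next lowest was 0.609. Without scaling, the median log2 fold change of all genes was -0.13 in saline-treated mice and -0.42 in ABE-treated mice against wild-type, and -0.27 between ABE- and saline-treated mice. With it, these medians were 0.0013, -0.022 and -0.0023. Groups were compared with limma on log2(scaled TPM + 0.5) with sex as a covariate, and a gene was called at a Benjamini-Hochberg adjusted p under 0.05 over all genes tested. The 0.5 understates the fold change of genes of low TPM such as *Arntl*, *Ciart* and *Clock*, and for these the fold change of limma-voom on recovered reads is given too. Mouse numbers of the wild-type group formed a separate series, and that group alone received no injection. Series, injection and genotype therefore cannot be told apart in the comparisons with wild-type.

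Some clock transcripts were higher in *LMNA* G/G tibiae than in wild-type tibiae. Against wild-type, 4 of the 9 genes tested rose in saline-treated mice (*Clock*, *Per1*, *Per2* and *Nr1d2*) and 8 rose in ABE-treated mice, all but *Nr1d1*. Between the *LMNA* G/G groups, *Arntl*, *Clock*, *Per2*, *Per3*, *Nr1d2* and *Dbp* were higher in ABE-treated mice, 6 of 9. With the mean log2 level of 12 skeletal muscle genes as a covariate, the calls came to 3, 4 and 1 in the same order of comparisons, and without scaling to 1, 3 and 0. Over all 16123 genes tested, 7392, 5394 and 1211 were called with the muscle covariate, of which 3456, 2536 and 831 were higher. Without scaling 4742, 10928 and 7105 were called, of which 1038, 1470 and 531 were higher. In the scaled fit with sex as the only covariate, none of the 9 was called lower by limma in any of the 3 comparisons, and 0 were lower at an unadjusted p under 0.05. Over all genes tested in that fit, the share called was 52.7% for saline-treated and 70.5% for ABE-treated mice, each against wild-type, and 48.5% between ABE- and saline-treated mice. The share called higher was 25.7%, 34.7% and 24.8% in the same order. The median log2 fold change of the 9 genes was 0.25, 0.51 and 0.30. Fewer cells of a type and less RNA per cell cannot be told apart in such bulk samples.

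**Figure D1:**
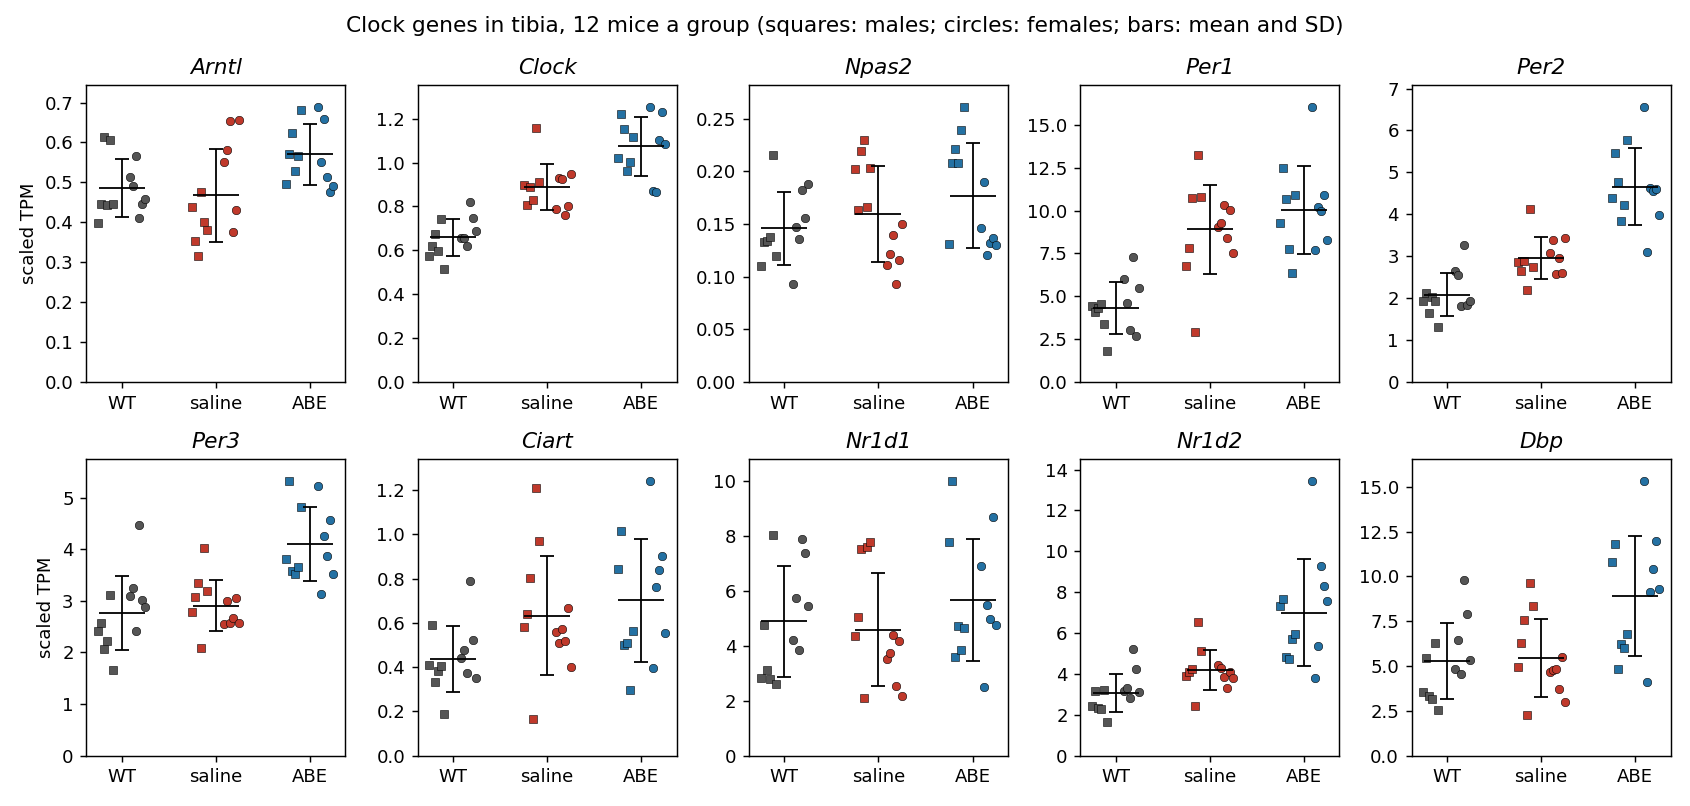
Scaled TPM of the 10 clock genes, one point per mouse (squares males, circles females), with the mean and SD of each group of 12. *Clock* in ABE-treated mice lies above every wild-type mouse, whereas the groups overlap for *Nr1d1*, with medians of 4.48, 4.26 and 4.86. How common such a separation was among all genes tested was not counted.

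Of the activators, *Clock* rose most steadily from group to group (chromosome 5, 76209868 to 76304792, GRCm38). Its scaled TPM was 0.515 to 0.822 in wild-type mice (median 0.657), 0.761 to 1.16 in saline-treated mice (median 0.894) and 0.867 to 1.25 in ABE-treated mice (median 1.09). The wild-type and ABE-treated groups did not overlap, and the saline-treated group overlapped with both. How many of all genes tested were separated in this way was not counted, and 70.5% of them were called in this comparison. The log2 fold change was 0.26 ± 0.047 (SE) in saline-treated mice (adjusted p = 2.62e-05) and 0.44 ± 0.047 in ABE-treated mice (adjusted p = 2.05e-09) against wild-type. Between ABE- and saline-treated mice it was 0.18 ± 0.047 (adjusted p = 0.00301). With limma-voom on reads the folds were 1.35, 1.63 and 1.21.

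*Arntl*, the partner of *Clock* (chromosome 7, 113207465 to 113314126), differed little. It was 0.399 to 0.613 scaled TPM in wild-type mice (median 0.452), 0.316 to 0.657 in saline-treated mice (median 0.434) and 0.475 to 0.689 in ABE-treated mice (median 0.559). The 3 ranges overlapped, with the lowest values in saline-treated males. No difference was called between saline-treated and wild-type mice (log2 fold change -0.034, 95% interval from -0.14, adjusted p = 0.609). The rises in ABE-treated mice passed the threshold narrowly, at 0.12 ± 0.052 against wild-type (adjusted p = 0.0446) and 0.15 ± 0.052 against saline-treated mice (adjusted p = 0.0178). In limma-voom these rises were 1.18-fold and 1.25-fold (adjusted p = 0.0409 and 0.0109). The first was lost on leaving out any of 15 single libraries, and the second on none. With the muscle list as a covariate in limma, neither rise was called (0.094 and 0.14, adjusted p = 0.340 and 0.134).

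*Npas2*, which can stand in for *Clock*, was the least abundant of the 10 per length. It ranged from 0.0926 to 0.216 scaled TPM in wild-type mice (median 0.137), from 0.0927 to 0.229 in saline-treated mice (median 0.157) and from 0.120 to 0.261 in ABE-treated mice (median 0.168). The ranges overlapped almost wholly. A fit of limma-voom without a filter, added after the data were seen, gave folds of 1.10, 1.22 and 1.11 for the 3 comparisons, none of them called (adjusted p = 0.512, 0.1003 and 0.430).

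The *Per* genes, whose proteins form the main negative limb, differed from each other in their order over the groups. *Per1* (chromosome 11, 69095217 to 69109960) was higher in both *LMNA* G/G groups. Its scaled TPM was 1.79 to 7.30 in wild-type mice (median 4.37), 2.90 to 13.2 in saline-treated mice (median 9.17) and 6.35 to 16.1 in ABE-treated mice (median 10.1). Saline-treated mice lay above the wild-type range except for 2 males, the lower at 2.90. *Per1* rose by 0.97 ± 0.18 in saline-treated and 1.17 ± 0.18 in ABE-treated animals (adjusted p = 3.04e-05 and 8.42e-07), the largest log2 fold changes of the 9 genes. Between ABE- and saline-treated mice the difference was 0.20 ± 0.18 and was not called (adjusted p = 0.371, 95% interval from -0.16 to 0.56).

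*Per2* (chromosome 1, 91415982 to 91459324) rose in each step. It was 1.30 to 3.26 scaled TPM in wild-type mice (median 1.93), 2.18 to 4.13 in saline-treated mice (median 2.88) and 3.11 to 6.56 in ABE-treated mice (median 4.58). Neighbouring groups overlapped, and 1 wild-type female reached into the ABE-treated range. The log2 fold change was 0.43 ± 0.0996 in saline-treated mice (adjusted p = 0.000532) and 1.002 ± 0.0996 in ABE-treated mice (adjusted p = 5.31e-10) against wild-type. ABE-treated mice were higher than saline-treated mice by 0.57 ± 0.0996 (adjusted p = 0.000273).

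*Per3* (chromosome 4, 151003652 to 151044665) was about level in wild-type and saline-treated mice. It was 1.67 to 4.48 scaled TPM in wild-type mice (median 2.73), 2.09 to 4.02 in saline-treated mice (median 2.89) and 3.14 to 5.33 in ABE-treated mice (median 3.85). The saline-treated range lay inside the wild-type range, and the lowest ABE-treated mouse was above the medians of both. The difference of saline-treated from wild-type mice was 0.079 ± 0.10 (adjusted p = 0.529). ABE-treated mice were higher by 0.51 ± 0.10 than wild-type (adjusted p = 3.76e-05) and by 0.43 ± 0.10 than saline-treated mice (adjusted p = 0.00153).

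Of the other repressors, *Nr1d2* (chromosome 14, 18204054 to 18239127) rose and its paralogue *Nr1d1* (chromosome 11, 98767932 to 98775333) was not called in any comparison. *Nr1d2* was 1.67 to 5.22 scaled TPM in wild-type mice (median 3.14), 2.44 to 6.53 in saline-treated mice (median 4.11) and 3.78 to 13.5 in ABE-treated mice (median 6.63). The log2 fold change was 0.40 ± 0.15 in saline-treated mice (adjusted p = 0.0235) and 1.04 ± 0.15 in ABE-treated mice (adjusted p = 3.48e-07) against wild-type. It was 0.63 ± 0.15 between ABE- and saline-treated mice (adjusted p = 0.00161). The call in saline-treated mice was lost without saline-treated replicate 11, at 0.33 (adjusted p = 0.0540). *Nr1d1* was 2.61 to 8.04 in wild-type mice (median 4.48), 2.10 to 7.78 in saline-treated mice (median 4.26) and 2.51 to 9.9996 in ABE-treated mice (median 4.86). These ranges overlapped almost wholly, and the log2 fold changes were -0.10, 0.20 and 0.30, each with an SE of 0.22 (adjusted p = 0.729, 0.427 and 0.270). Exons of *Nr1d1* share 263 bases with *Thra* on the opposite strand, and although the libraries were strand-specific, the strand setting used in counting is not given in the sources used here.

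*Ciart* (chromosome 3, 95878503 to 95882251), whose window holds 3 E-boxes, was 0.190 to 0.789 scaled TPM in wild-type mice (median 0.406), 0.168 to 1.21 in saline-treated mice (median 0.577) and 0.298 to 1.24 in ABE-treated mice (median 0.664). The groups overlapped widely, and saline-treated males held both the lowest value and the second highest. It rose in ABE-treated mice against wild-type, by 0.34 ± 0.12 (adjusted p = 0.0155), or 1.55-fold in limma-voom (adjusted p = 0.0236). The difference in saline-treated mice was 0.25 ± 0.12 (adjusted p = 0.0867), and that between ABE- and saline-treated mice was 0.087 ± 0.12 (adjusted p = 0.584).

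*Dbp*, which encodes a PAR-domain bZIP factor and is a standard readout of clock output (chromosome 7, 45705088 to 45710203), was higher in ABE-treated mice. It was 2.56 to 9.79 scaled TPM in wild-type mice (median 5.10), 2.29 to 9.63 in saline-treated mice (median 4.88) and 4.12 to 15.3 in ABE-treated mice (median 9.23). Wild-type and saline-treated mice covered nearly the same range, and even the ABE-treated median lay within it. The log2 fold change was 0.044 ± 0.21 in saline-treated mice (adjusted p = 0.881, 95% interval from -0.39 to 0.48) and 0.70 ± 0.21 in ABE-treated mice (adjusted p = 0.00430) against wild-type. It was 0.66 ± 0.21 between ABE- and saline-treated mice (adjusted p = 0.0127). Exons of *Dbp* share 539 bases with *Sphk2* on the opposite strand.

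On the scale used, several members spread more between mice of a group than most genes tested. After the mean of each group and sex was removed, the residual SD on the log2 scale was 0.52 for *Nr1d1*, 0.50 for *Dbp* and 0.46 for *Per1*. It was 0.36 for *Nr1d2*, 0.30 for *Ciart*, 0.24 for *Per2* and 0.23 for *Per3*, and 0.12 and 0.11 for *Arntl* and *Clock*. *Nr1d1* and *Dbp* stood at percentiles 81.1 and 80.4 of all genes tested, and *Arntl* and *Clock* at 26.4 and 23.9. The 0.5 added before log2 shrinks the SD of genes of low TPM such as *Arntl*, *Clock* and *Ciart*. Their SDs therefore cannot be ranked against those of the more abundant members. The percentiles carry the same limit, since only 4048 of the 16123 genes tested averaged 5 TPM or more.

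No member passed the test for a difference in effect between the sexes, and the values of *Dbp* by sex are given as a description. Among wild-type mice, *Dbp* had medians of 3.43 scaled TPM in males and 5.88 in females, and among saline-treated mice 6.94 in males and 4.71 in females. In ABE-treated mice the medians were 6.53 in males and 9.88 in females. The female effect minus the male effect of saline-treated against wild-type mice was -1.05 ± 0.40 for *Dbp* (adjusted p = 0.132) and -1.13 ± 0.42 for *Nr1d1* (adjusted p = 0.124). None of the 9 genes was called for such an interaction in limma (4, 1 and 1 at an unadjusted p under 0.05), where 0.478%, 2.95% and 0.0248% of all genes were called for the 3 comparisons. An unadjusted p under 0.05 was reached by 3553, 3129 and 2628 of the 16123 genes tested. Males alone gave 2 called members between ABE- and saline-treated mice, *Arntl* and *Per2*, and females alone gave 1 between saline-treated and wild-type mice, *Per1*. Over all 16123 genes tested, 3392 and 3487 were called in these fits, in that order, with 6 mice a group.

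The skeletal muscle genes of the tissue moved with these results. The list of 12 muscle genes, led by *Acta1*, summed to 210 to 3237 scaled TPM in wild-type mice (median 1050), 318 to 8050 in saline-treated mice (median 2142) and 1116 to 13493 in ABE-treated mice (median 6520). Of the 12, 9 rose in the saline group and 12 in the ABE group against wild-type, and 11 rose in ABE-treated against saline-treated mice. None of the 12 had a mean of 0 in any group. With the mean log2 level of the list as a further covariate, 3 members stayed called in saline-treated mice (*Clock* at 0.17, *Per1* at 0.80 and *Per2* at 0.27). In ABE-treated mice against wild-type 4 stayed called, *Clock* at 0.24, *Per1* at 0.81, *Per2* at 0.66 and *Nr1d2* at 0.35. Between ABE- and saline-treated mice *Per2* alone was called, at 0.39 ± 0.092 (adjusted p = 0.0115). Over all genes tested, this fit called 7392, 5394 and 1211 of 16123 in the 3 comparisons. *Dbp* then differed by -0.34, -0.13 and 0.21 in the 3 comparisons (adjusted p = 0.120, 0.701 and 0.466). For *Nr1d1* the values were -0.47, -0.59 and -0.12 (adjusted p = 0.0513, 0.0701 and 0.735). Since the list itself rose with the groups, such a fit also removes part of any group effect that runs along with muscle.

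**Figure D2:**
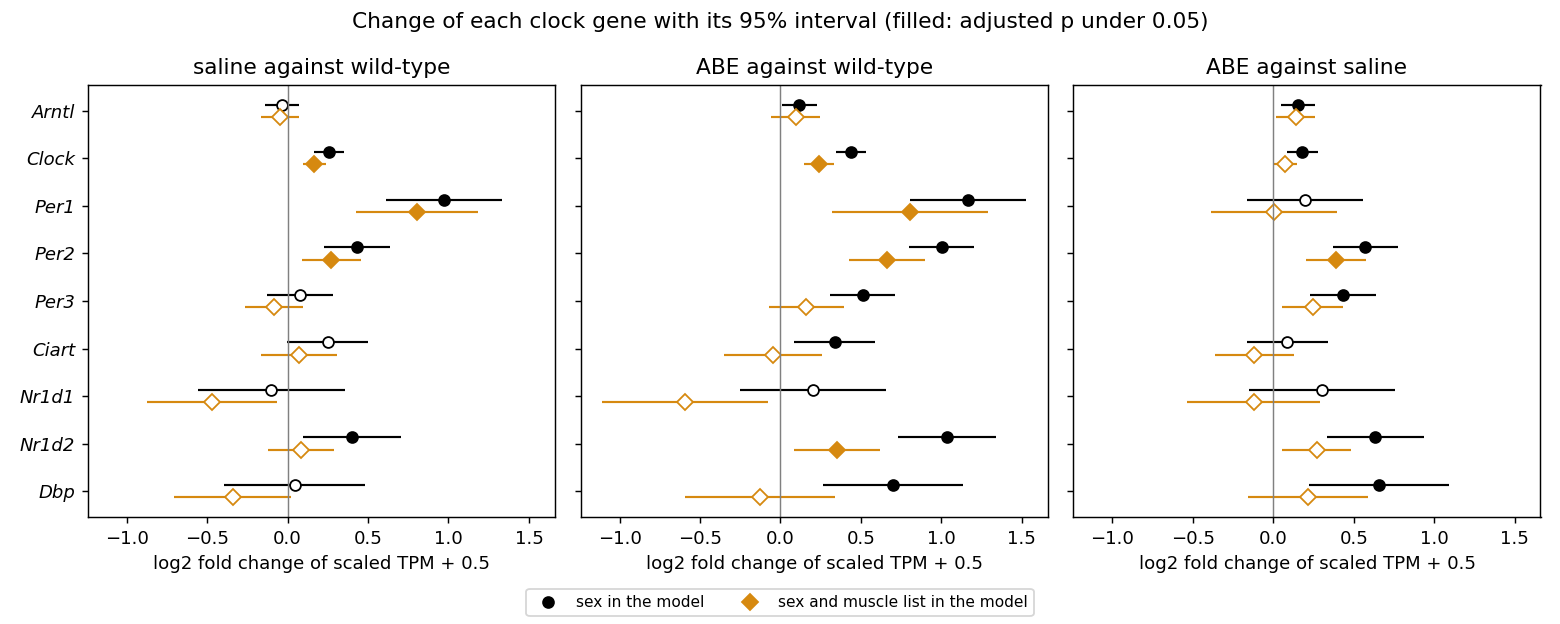
Log2 fold change of the 9 tested clock genes in the 3 comparisons, with 95% intervals, from the fit with sex (black circles) and from the fit with sex and the muscle list (orange diamonds); filled symbols have an adjusted p under 0.05. With the list in the fit *Per1* went from 0.97 and 1.17 to 0.80 and 0.81 against wild-type and was still called, and *Dbp* went from 0.044 and 0.70 to -0.34 and -0.13.

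The other cell types of the sample differed too. The osteocyte list, led by *Sost*, summed to 10.4 to 49.6 scaled TPM in wild-type mice, 170 to 479 in saline-treated and 174 to 346 in ABE-treated animals. All 5 of its genes tested rose against wild-type in both *LMNA* G/G groups, and *Mepe* fell between ABE- and saline-treated mice. The osteoblast list, led by *Col1a1*, was at medians of 1125, 1123 and 1096 scaled TPM, so the defining genes of the labelled bone were present in all groups. Neutrophil genes, led by *S100a9*, had medians of 1397, 2423 and 1497, so that this marrow cell type was present in all groups. Medians were 33.7, 15.2 and 19.9 for B cells (*Cd79b*), 99.0, 125 and 59.7 for erythroid cells (*Alas2*) and 14.7, 13.5 and 8.60 for adipocytes (*Adipoq*). They were 113, 33.0 and 43.9 for cartilage (*Prg4*) and 11.3, 13.4 and 15.99 for endothelium (*Cdh5*). The gene named for a list is its most abundant over all libraries, and not always in each group. *Prg4* had means of 84.0, 0.61 and 2.41 scaled TPM, where *Col11a2* had 32.0, 21.4 and 25.1. No gene of these lists had a mean of 0 in any group. With the muscle, neutrophil, B cell and erythroid lists as covariates, the calls between ABE- and saline-treated mice came to 1, that of *Per2*. Over all genes tested, 1373 of 16123 were called there. The part of the osteocyte, cartilage, adipocyte and endothelial lists in the results was not tested.

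**Figure D3:**
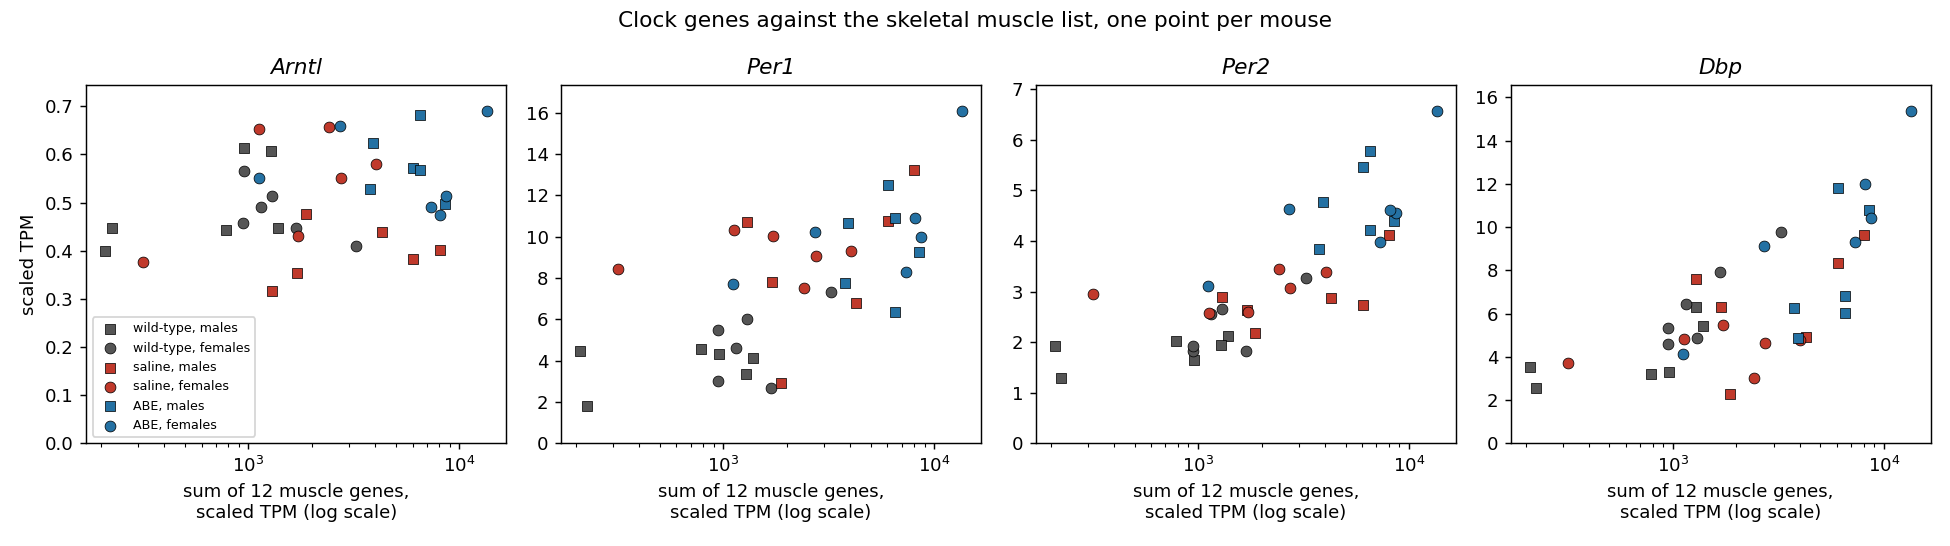
Scaled TPM of *Arntl*, *Per1*, *Per2* and *Dbp* against the summed scaled TPM of 12 skeletal muscle genes (log axis), one point per mouse. ABE-treated replicate 1, with the highest muscle sum at 13493, is also highest for *Per1*, *Per2* and *Dbp* (16.1, 6.56 and 15.3 scaled TPM).

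ABE-treated replicate 1, the library with the lowest divisor, had the highest value of all mice for 7 of the 10 genes (*Arntl*, *Clock*, *Per1*, *Per2*, *Ciart*, *Nr1d2* and *Dbp*). Its deposited TPM were low, for example 3.32 for *Dbp*, and became 15.3 by scaling. Without it, all 6 calls between ABE- and saline-treated mice remained, with *Dbp* at 0.59 (adjusted p = 0.0287) and *Arntl* at 0.14 (adjusted p = 0.0351). Against wild-type, the call of *Arntl* was lost (0.11, adjusted p = 0.0768) and the other 7 remained.

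Mouse by mouse within a group, the members other than *Arntl* rose and fell together. After the mean of each group and sex was removed, all 28 pairs among *Clock*, the *Per* genes, *Ciart*, the *Nr1d* genes and *Dbp* had a positive Pearson correlation over the 36 libraries, from 0.44 to 0.95 (median 0.74). *Dbp* was closest to *Nr1d1* (r = 0.95), *Ciart* (r = 0.90) and *Nr1d2* (r = 0.90). *Arntl* stood apart, with correlations between -0.19 (*Ciart*) and 0.24 (*Clock*) to the other members. The muscle list correlated with *Nr1d2* at 0.77, *Clock* at 0.71 and *Dbp* at 0.60, but with *Per1* at 0.36 and *Arntl* at 0.28. These points share their library, its divisor and its cell composition, and the correlations are given as a description.

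**Figure D4:**
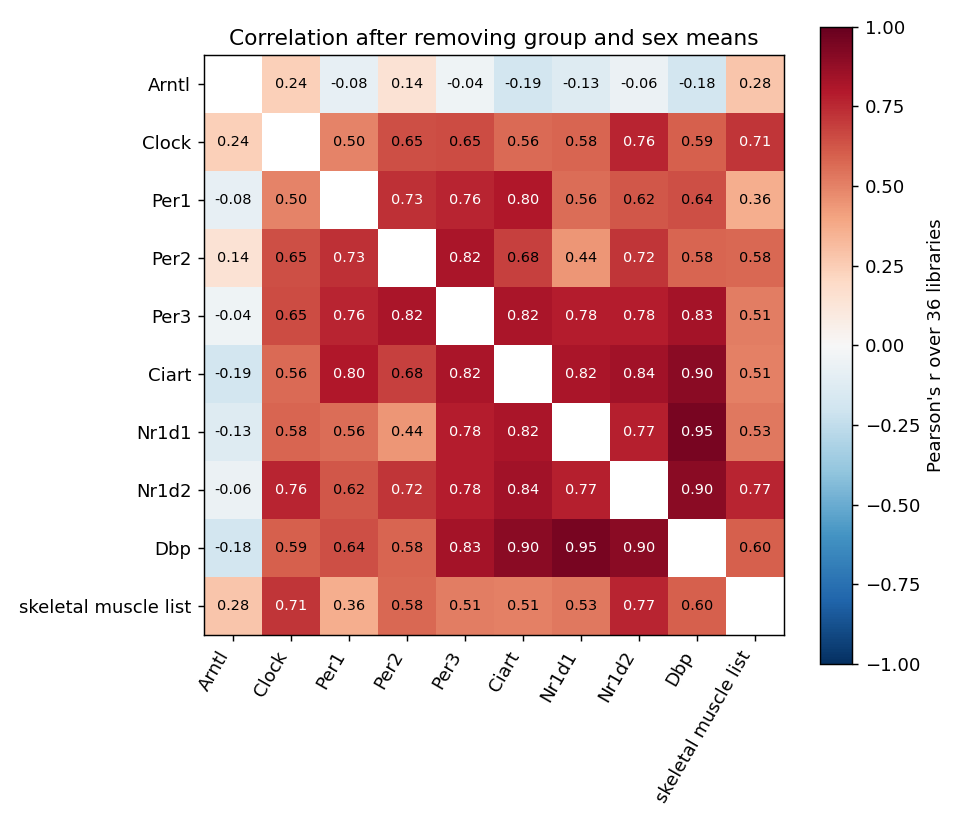
Pearson correlation of each pair of clock genes, and of each with the skeletal muscle list, over 36 libraries after removal of the mean of each group and sex (red positive, blue negative). The 8 genes below *Arntl* form a positive block of 0.44 to 0.95, and the row of *Arntl* lies between -0.19 and 0.28.

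*Arntl* and *Dbp*, which peak at opposite times of day, were compared within each group. Over the 12 wild-type mice, Pearson's r was -0.098 (permutation p = 0.757, adjusted p = 0.891 over 27 relations of *Arntl*) and Spearman's rho was -0.014 (permutation p = 0.974, adjusted p = 1). Over the 12 saline-treated mice r was -0.53 (permutation p = 0.0759, adjusted p = 0.570) and rho was -0.59 (permutation p = 0.0468, adjusted p = 0.316). Over the 12 ABE-treated mice r was -0.071 (permutation p = 0.824, adjusted p = 0.897) and rho was -0.13 (permutation p = 0.682, adjusted p = 0.879). Without the 2 mice farthest from the median of *Arntl*, r was -0.044, -0.47 and -0.40 in the same order. These correlations keep the difference between the sexes, and on values centred on each sex r was -0.070, -0.38 and -0.036. With quantile normalization r was -0.69 (permutation test, adjusted p = 0.0453), -0.51 and 0.28, and without scaling it was -0.21, -0.23 and 0.56, so the sign in ABE-treated mice and the call in wild-type mice changed with the scaling. With median ratio scaling, none of the 27 relations of *Arntl* to another member passed the correction, and the largest r was 0.61, with *Per2* in ABE-treated mice (permutation p = 0.0338, adjusted p = 0.570), which fell to 0.23 without 2 mice.

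**Figure D5:**
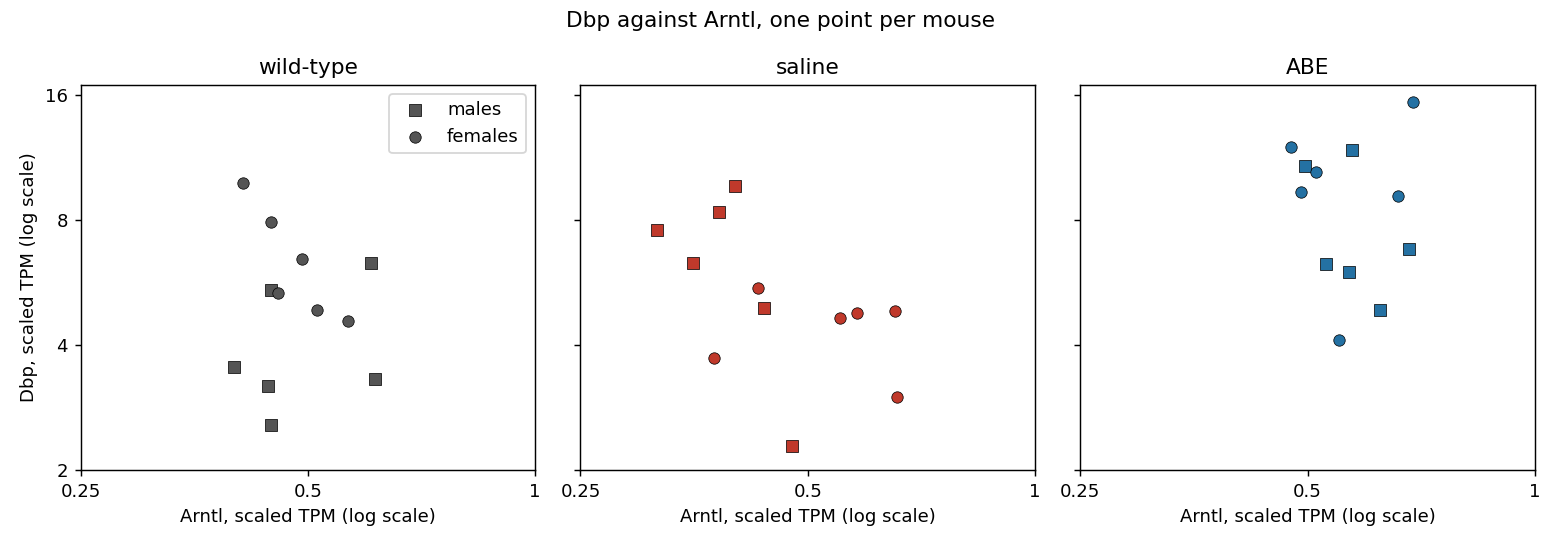
Scaled TPM of *Dbp* against *Arntl* on log axes, one point per mouse, in 3 panels by group. In saline-treated mice r is -0.53 (permutation p = 0.0759, adjusted p = 0.570), or -0.38 on values centred on each sex, and the relation did not pass the correction. The median of *Dbp* is 4.88 in saline-treated mice and 9.23 in ABE-treated mice.

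The log2 ratio of *Dbp* to *Arntl* within a library, which does not depend on scaling, put the groups in another order than *Per1* to *Arntl*. The ratio of *Dbp* to *Arntl* had a median of 3.31 in wild-type mice (2.43 to 4.58), 3.40 in saline-treated mice (2.19 to 4.59) and 4.02 in ABE-treated mice (2.90 to 4.66). For *Nr1d1* to *Arntl* the medians were 3.22, 3.02 and 3.22, so the groups lay together. For *Per1* to *Arntl* they were 3.21, 4.25 and 4.09, and for *Per2* to *Arntl* 2.13, 2.65 and 3.05. Both ratios to *Per* genes were higher in the *LMNA* G/G groups than in wild-type, while that of *Nr1d1* was not. In the scaled fit with sex as the only covariate, *Arntl* and *Dbp* were called in the same direction between ABE- and saline-treated mice. With the muscle list as a covariate, limma called neither (0.14 and 0.21, adjusted p = 0.134 and 0.466). With TPM as deposited they were at -0.029 and 0.28, again not called (adjusted p = 0.812 and 0.295). A difference in the hour of tissue collection was not tested, and it cannot be told apart from group.

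The genes most like *Dbp* over the libraries, among 4048 genes averaging 5 TPM or more and after removal of group and sex means, were *Nr1d1* (r = 0.95), *Tef* (r = 0.87), *H1f0* (r = 0.84), *Fkbp1a* (r = 0.81) and *Abcc9* (r = 0.80). The least like were *Hipk1* (r = -0.85), *Mxd1* (r = -0.82), *Zc3hav1* (r = -0.81), *Ppp1r15b* (r = -0.81) and *Hk1* (r = -0.80). For *Arntl* the correlations were weaker, with *Mir6387* (r = 0.63), *Dnajc7* (r = 0.61), *Mir3070a* (r = 0.58), *Gm27786* (r = 0.58) and *Gm22725* (r = 0.57) at one end. *Scarna8* (r = -0.53), *Pdcd4* (r = -0.50), *Snord65* (r = -0.50), *Gm15067* (r = -0.49) and *Nptn* (r = -0.49) were at the other. Of these 10 genes named for *Arntl*, 7 are annotated at 156 bp or less, so short that their TPM were computed over the smallest length the table uses, 1 bp.

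Of 23 other genes of the clock, 20 were tested. In saline-treated mice against wild-type 7 rose, 4 fell and 9 were not called, with a median log2 fold change of 0.071. In ABE-treated mice 13 rose and 7 fell against wild-type (median 0.32), and 10 rose and 5 fell against saline-treated mice (median 0.24). *Cry1*, the repressor that works with PER, rose in all 3 comparisons (0.21, 0.42 and 0.21, adjusted p = 0.000662, 1.28e-08 and 0.00169), and *Cry2* rose in ABE-treated mice by 0.50 and 0.31 (adjusted p = 8.48e-05 and 0.0164) but was not called in saline-treated mice (0.19, adjusted p = 0.121). *Nfil3*, which encodes a repressor at D-boxes, rose against wild-type by 0.81 and 1.10 (adjusted p = 2.42e-06 and 6.47e-09). With the muscle list as a covariate, *Cry2* was at 0.010 and 0.046 in ABE-treated mice and was not called (adjusted p = 0.943 and 0.710). *Cry1* was then at 0.17, 0.33 and 0.16 (adjusted p = 0.00876, 0.000372 and 0.0588). *Nfil3* was at 0.68 and 0.82 against wild-type (adjusted p = 6.53e-05 and 0.000346).

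The PAR-domain relatives of *Dbp* went the way of *Dbp* in ABE-treated mice. *Tef* had medians of 3.53, 4.42 and 7.66 scaled TPM, and rose by 0.36 in saline-treated and 0.98 in ABE-treated animals against wild-type (adjusted p = 0.0436 and 8.99e-07). *Hlf* was level in saline-treated mice (-0.019, adjusted p = 0.878) and rose by 0.36 in ABE-treated mice (adjusted p = 0.000537). *Rora*, whose protein activates through the RORE, rose by 0.45 and 1.01 against wild-type (adjusted p = 0.0154 and 1.06e-06). *Bhlhe41*, an E-box repressor, was at 0.26 in saline-treated mice (adjusted p = 0.151) and rose by 0.84 in ABE-treated mice (adjusted p = 1.31e-05). Its paralogue *Bhlhe40* rose by 0.76 and 1.01 (adjusted p = 9.93e-05 and 6.05e-07). With the muscle list as a covariate, none of these genes was called in ABE-treated mice against wild-type. *Tef* was then at 0.24, *Hlf* at 0.036, *Rora* at 0.19, *Bhlhe41* at 0.060 and *Bhlhe40* at 0.26 (adjusted p = 0.0964, 0.802, 0.116, 0.691 and 0.0660). In saline-treated mice *Bhlhe40* stayed called at 0.40 (adjusted p = 0.000227), and *Tef* and *Rora* did not (0.014 and 0.070).

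*Usp2*, a deubiquitinase gene driven by the clock, rose most of the list, by 0.91 and 2.18 against wild-type (adjusted p = 0.00847 and 7.50e-08) and by 1.28 between ABE- and saline-treated mice (adjusted p = 0.00120). Its scaled TPM had medians of 1.35, 3.06 and 8.22. *Csnk1e*, a kinase gene whose product sets the stability of PER, rose in ABE-treated mice by 0.28 against wild-type (adjusted p = 0.000287) and by 0.32 against saline-treated mice (adjusted p = 0.000675). *Csnk1d* fell against wild-type by 0.074 and 0.067 (adjusted p = 0.00618 and 0.00842). The genes that fell in 2 or 3 comparisons were *Timeless*, *Tipin*, *Btrc*, *Wee1*, *Rbm3*, *Cirbp* and *Csnk1d*. *Timeless* fell by 0.54 and 0.91 against wild-type (adjusted p = 7.93e-06 and 5.48e-10), and *Tipin*, its partner at replication forks, by 0.54 in ABE-treated mice (adjusted p = 3.93e-05). The cold-inducible RNA-binding genes *Rbm3* and *Cirbp* fell by 0.53 and 0.31 in ABE-treated mice against wild-type (adjusted p = 2.37e-05 and 0.000138), *Btrc* by 0.43 (adjusted p = 6.24e-07) and *Wee1* by 0.25 (adjusted p = 0.000518). With the muscle list as a covariate, 4 of the 20 rose and 4 fell in saline-treated mice, 3 rose and 3 fell in ABE-treated mice against wild-type, and 2 rose and 3 fell between ABE- and saline-treated mice. *Usp2* was then at 0.20 in saline-treated (adjusted p = 0.213) and 0.67 in ABE-treated mice (adjusted p = 0.00256) against wild-type. In ABE-treated mice against wild-type, *Csnk1e* was no longer called (0.026, adjusted p = 0.792). Nor were *Tipin*, *Rbm3*, *Wee1* and *Csnk1d* (adjusted p = 0.252, 0.234, 0.834 and 0.146). *Timeless*, *Btrc* and *Cirbp* stayed called there (-0.57, -0.24 and -0.42, adjusted p = 6.07e-05, 0.0203 and 0.000929).

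Genes that respond to glucocorticoids or to immediate early signals are given beside *Per1*, which answers to both. All 5 glucocorticoid-responsive genes of a fixed list rose against wild-type in both *LMNA* G/G groups. *Tsc22d3* rose by 0.87 and 1.40 (adjusted p = 4.66e-05 and 1.04e-08), *Fkbp5* by 0.60 and 0.60 (adjusted p = 3.01e-06 and 1.43e-06), *Zbtb16* by 0.97 and 1.77, *Sgk1* by 0.44 and 0.87 and *Pdk4* by 1.78 and 2.47. Between ABE- and saline-treated mice *Fkbp5* (-0.0031, adjusted p = 0.983) and *Pdk4* (0.69, adjusted p = 0.119) were not called, nor was *Per1*, and *Tsc22d3*, *Sgk1* and *Zbtb16* rose. *Fos* rose by 1.69 and 1.72 against wild-type (adjusted p = 4.58e-11 and 2.65e-11), *Egr1* by 0.92 and 1.06, *Junb* by 0.77 and 0.48 and *Nr4a1* by 0.94 and 2.15. In ABE-treated against saline-treated mice *Nr4a1* was at 1.21 (adjusted p = 0.000948) and *Junb* at -0.29 (adjusted p = 0.0133). *Fos* and *Egr1* were not called there (0.027 and 0.14, adjusted p = 0.893 and 0.542). *Fosb* did not pass the filter. With the muscle list as a covariate *Per1* was at 0.80 and 0.81 against wild-type, *Fkbp5* at 0.60 and 0.60 and *Fos* at 1.61 and 1.56, all still called. *Tsc22d3* was then at 0.62 and 0.87, *Zbtb16* at 0.62 and 1.02, *Pdk4* at 1.15 and 1.11, *Egr1* at 0.76 and 0.71 and *Junb* at 0.75 and 0.44, also called. *Sgk1* was no longer called in either comparison (0.14 and 0.23, adjusted p = 0.251 and 0.157), and *Nr4a1* was called in ABE-treated mice alone (0.35 and 0.89, adjusted p = 0.0665 and 0.00119). The rises of *Tsc22d3*, *Sgk1* and *Zbtb16* between ABE- and saline-treated mice were not called in that fit (0.25, 0.090 and 0.40, adjusted p = 0.300, 0.594 and 0.131). *Nr4a1* stayed called in that comparison at 0.53 (adjusted p = 0.0410), and *Junb*, at -0.32, did not (adjusted p = 0.0679). Neither the hour of collection nor handling of the mice is given in the sources used here, and their part in these values was not tested.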

How the data were processed

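Poly(A) RNA of 36 tibiae was sequenced on paired ends as strand-specific libraries by the authors, aligned to GRCm38 with STAR (2.73a in the submitters' processing notes) and counted on GENCODE genes with QoRTs. The deposited values are TPM for 56246 genes, and how the authors computed TPM is not given in the sources used here. All sample columns were used (0 left out). From the values, TPM are whole reads over gene length less 218 bp (at least 1 bp, which is used for all shorter genes), times a constant per library. With a tolerance of 0.01, 100% of values came out whole, and these reads gave the depth and the limma-voom alternative.

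Samples were grouped by the genotype and treatment labels. The labels do not say that mice of a group are from separate litters. TPM were divided by median ratios over 14219 genes above 0 in all libraries, 0.5 was added before log2, and genes averaging 0.5 TPM or more entered limma (36 libraries in 1 fit, sex as covariate, Benjamini-Hochberg adjusted p under 0.05). Interactions were fitted on 6 means of group and sex. Permutation tests were two-sided and drew 100000 resamples. Libraries held at least 48064068 reads on genes, and the lowest count of a member was 88 reads (*Npas2*). The fits were tested on simulated data.

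The members and lists were chosen with earlier results of these data known. Named were the 10 members, the other clock genes *Cry1*, *Cry2*, *Nfil3*, *Tef*, *Hlf*, *Bhlhe41* and others called in at least 2 comparisons (the count of the rest is given, and some of these genes are not reported here), the 5 genes most and least correlated with *Arntl* and with *Dbp*, the glucocorticoid-responsive and immediate early genes, and the most abundant gene of each marker list. Alternatives were a pseudocount of 0.1 or 1, no filter or a filter at 5 TPM, TPM as deposited, quantile normalization, no sex covariate, only the compared groups, each sex alone, array weights, the muscle list or 4 cell type lists as covariates, limma-voom on reads, and each library left out. Limma-voom without a filter was added after the data were seen. Promoter sequences are RefSeq windows on GRCm38.p6, coordinates and exon overlaps GENCODE vM21. Tools were limma 3.58.1 in R 4.3.3, and scipy 1.17.1, pandas 2.3.3, numpy 2.4.6 and matplotlib 3.10.9 in Python 3.11.15. The human transgene and the editor's reads were not analysed here.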

Additional observations from a re-analysis of the deposited data

Results flagged for a closer look

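In groups of 6 mice of 1 sex, 3 values stood apart from the other 5 by more than Dixon's limit on the log2 scale. A saline-treated male (replicate 11) had 1.16 scaled TPM of *Clock*, where the others had 0.805 to 0.912. A wild-type male (replicate 10) had 0.216 of *Npas2*, where the others had 0.110 to 0.138. A wild-type male (replicate 11) had 1.79 of *Per1*, where the others had 3.37 to 4.54. With 60 groups examined, chance gives about 1 in 20, as many as were seen. The calls of *Clock* and *Per1* in saline-treated and ABE-treated mice against wild-type held without each of these libraries.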

How the results depend on the processing

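With TPM as deposited the members called came to 1 (saline-treated) and 3 (ABE-treated) against wild-type and to 0 between ABE- and saline-treated mice. Over all genes, 4742, 10928 and 7105 of 16123 were called there. With a filter at 5 TPM, which left 3 members, the members called came to 1, 2 and 1, where 2124, 2710 and 1828 of 4048 genes were called. Females alone gave 1 in saline-treated mice and males alone 2 between ABE- and saline-treated mice, where 3487 and 3392 of 16123 genes were called. Both the muscle list and the 4 cell type lists as covariates gave 4 in ABE-treated mice against wild-type and 1 between ABE- and saline-treated mice. Over all 16123 genes, the muscle list left 5394 and 1211 called in these comparisons, and the 4 lists 3907 and 1373. Other settings moved no count by over 1.5 times, and with 1 library left out the counts were 3 to 5, 7 to 8 and 6 to 6.

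Log2 fold changes turned their sign in 29 cases. In saline-treated mice against wild-type, females alone gave 0.081 for *Arntl*, -0.17 for *Per3* and -0.48 for *Dbp*, and males alone 0.46 for *Nr1d1*. There TPM as deposited gave -0.069 for *Per3* and -0.11 for *Dbp*, the muscle list -0.084 and -0.34, and the 4 lists 0.10 for *Arntl* and -0.15 for *Dbp*. In ABE-treated mice against wild-type, TPM as deposited gave -0.16 for *Arntl* and -0.31 for *Nr1d1*, females alone -0.084 for *Nr1d1*, the muscle list -0.59 for *Nr1d1*, -0.13 for *Dbp* and -0.046 for *Ciart*, and the 4 lists -0.58 for *Nr1d1* and -0.058 for *Dbp*. Between ABE- and saline-treated mice, TPM as deposited gave -0.029 for *Arntl*, -0.061 for *Clock*, -0.19 for *Per1*, -0.054 for *Nr1d1* and -0.12 for *Ciart*. There the muscle list gave -0.12 for *Nr1d1* and -0.12 for *Ciart*, the 4 lists -0.13 for *Per1*, -0.29 for *Nr1d1* and -0.23 for *Ciart*, and males alone -0.10 for *Ciart*. Apart from the TPM as deposited, which lack the scaling, the cause was not tested.

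With 1 library left out, *Dbp* in saline-treated mice ran from -0.045 to 0.13, and *Ciart* there was called without wild-type replicate 6 or saline-treated replicate 10. The correlation of *Arntl* with *Dbp* then ran from -0.23 to 0.12 in wild-type, -0.63 to -0.42 in saline-treated and -0.40 to 0.055 in ABE-treated mice. Quantile normalization gave -0.69 in wild-type mice (permutation test, adjusted p = 0.0453) and 0.28 in ABE-treated mice, where TPM as deposited gave 0.56. No paired analysis was possible because the labels give no shared replicate numbers.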

Other observations

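Of the other clock genes, 3 did not reach the filter. *Arntl2*, the paralogue of *Arntl*, had medians of 0.124, 0.127 and 0.201 scaled TPM (wild-type mice first, then saline-treated, then ABE-treated). *Rorb* was at 0.0046, 0.0044 and 0.0070, and *Fbxl21* at 0.045, 0.051 and 0.052. These values were not tested.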
